A study of Mus musculus with 4 samples.

Results

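Heat shock proteins and chaperones were examined in RNA-seq of intestinal group 3 innate lymphoid cells (ILC3s). Members were all genes whose symbol starts with Hspa, Hspb, Hspd, Hspe, Hsph, Hsp90, Hsf, Dnaja, Dnajb, Dnajc, Bag or Cct followed by a digit, together with Tcp1. They had to be listed in both joint expression tables, and names containing -ps (pseudogenes) were left out. This gave 71 genes of the 9596 gene names shared by the tables.

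ILC3s are lymphocytes of mucosal tissue that carry no rearranged antigen receptor and make IL-22 and IL-17. There were 4 libraries, 1 per group, all of total RNA from mouse small intestine cells at steady state, read on a BGISEQ-500 sequencer. The KO library came from ILC3s of mice with the genotype Il17d-KO, and the WT library from ILC3s of wild-type mice. The sort gate took live cells that were CD45 low, CD3 negative and CD90.2 high, among other criteria. The CD93-positive and CD93-negative ILC3s were both sorted from wild-type mice, after 12 h of culture of the cell suspension without stimulation. The labels carry that culture protocol for every library, and no source used here says whether the KO and WT cells were cultured, nor gives strain, age, sex or number of mice. Il17d is not analysed here, so the KO label was not checked on its own gene. Cd93, the receptor used for the other sort, was at 155 FPKM in CD93-positive and 79.9 FPKM in CD93-negative ILC3s, 1.94-fold higher (counting interval 1.88 to 2.00).

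Chaperones bind unfolded stretches of other proteins and help them to fold. HSP70 proteins (Hspa genes) do so in cycles of ATP hydrolysis that are started by J-domain proteins (Dnaj genes) and reset by nucleotide exchange factors such as the BAG proteins and Hsph1. HSP90 proteins take over partly folded clients such as kinases and steroid receptors, and the ring-shaped chaperonins HSP60 (mitochondria) and TRiC/CCT (cytosol) enclose theirs. Some of these genes run at a steady level in every cell, while others are switched on by heat shock factor 1 (HSF1) when proteins unfold. A further set is switched on by the unfolded protein response of the endoplasmic reticulum (ER). The 10 members taken here as heat-induced are textbook targets of HSF1: Hspa1a, Hspa1b, Hsph1, Hsp90aa1, Dnajb1, Dnaja1, Dnajb4, Bag3, Hspd1 and Hspe1. This list is a choice among the members and does not cover all targets of HSF1. The others were grouped as ER, mitochondrial, TRiC/CCT, constitutive cytosolic, heat shock factor, BAG and remaining genes.

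Motifs known for these programmes were looked for in promoters, and stretches of some members with a match are printed here. Not all members with large differences had a match, and some printed genes were near equal between libraries. HSF1 binds inverted repeats of the bases GAA, and the stretches of Hspa1a, Hspa1b and Hspe1 are shown for that reason. ATF6, a factor of the unfolded protein response, binds the ER stress element with NF-Y, and Hsp90b1, Dnajc3 and Hspa5 are shown for that. Sequences are from RefSeq (GRCm38.p6, the mm10 build), 5′ to 3′ on the strand of the gene. Capitals mark matches to GAANNTTC in Hspa1a and Hspa1b, to TTCNNGAANNTTC on either strand in Hspe1, and to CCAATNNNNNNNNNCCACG on either strand in the others.
Hspa1a, chr17:34972157-34972306, minus strand: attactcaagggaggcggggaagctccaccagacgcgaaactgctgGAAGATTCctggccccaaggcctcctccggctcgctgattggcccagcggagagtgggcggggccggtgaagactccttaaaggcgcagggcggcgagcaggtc
Hspa1b, chr17:34959239-34959388, minus strand: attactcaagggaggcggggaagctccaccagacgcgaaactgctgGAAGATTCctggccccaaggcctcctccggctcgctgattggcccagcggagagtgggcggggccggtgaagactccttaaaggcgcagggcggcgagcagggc
Hspe1, chr1:55088053-55088082, plus strand: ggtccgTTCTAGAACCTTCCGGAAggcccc
Hsp90b1, chr10:86705510-86705694, minus strand: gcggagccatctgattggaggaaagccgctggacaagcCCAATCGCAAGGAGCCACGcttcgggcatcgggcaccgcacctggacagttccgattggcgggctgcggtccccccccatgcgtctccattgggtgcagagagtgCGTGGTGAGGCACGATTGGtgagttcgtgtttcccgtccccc
Dnajc3, chr14:118937782-118937931, plus strand: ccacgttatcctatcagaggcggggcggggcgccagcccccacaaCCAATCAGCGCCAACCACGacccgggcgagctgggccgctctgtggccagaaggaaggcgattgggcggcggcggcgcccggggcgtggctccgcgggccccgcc
Hspa5, chr2:34772025-34772043, plus strand: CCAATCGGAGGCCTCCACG

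In the 250 bases upstream of the start, GAANNTTC occurred in 7.73% of the 27025 genes with a RefSeq promoter entry. Of the 71 members, 56 matched an entry. The motif, which reads the same on both strands, was found in 5 of 9 heat-induced members and in 4 of 47 other members with an entry. These 5 heat-induced members were Dnaja1, Hspd1 with Hspe1 at the same bases, and Hspa1a with Hspa1b in near-identical promoters. A gene can have several entries and was counted if any of them matched. By entry, the motif was in 5 of 15 for heat-induced members, in 5 of 59 for other members and in 6.69% of all 32851. Dnajb1 and Hsph1 had an entry without this motif. The longer TTCNNGAANNTTC, searched on both strands and able to overlap GAANNTTC, occurred in 0.514% of all genes, in 2 of 9 heat-induced members and in 1 of 47 others. Those 2 were Hspd1 and Hspe1, which are read in opposite directions and share the same bases. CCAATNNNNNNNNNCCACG occurred on either strand in 0.130% of all genes and in 3 of 7 ER chaperones with an entry, the genes printed above. Hspa1a and Hspa1b were identical at 247 of their 250 upstream bases. Starts differ between annotations: the printed Hspa5 stretch is upstream of the RefSeq start but inside an Hspa5 exon of GENCODE M21, and the Hspe1 stretch lies in an Hspd1 exon there. A match is a description of the letters and not a measured site.

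Levels are given in FPKM, fragments per kilobase of gene scaled to library size, so that genes of different length can be compared within a library. The KO and WT libraries stood in 1 deposited table and the CD93 libraries in another, made with different gene sets, so levels were compared within a table only. Totals behind the scaling were 27002581 reads in KO, 26087274 in WT, and 11712846 (CD93-positive) and 11790580 (CD93-negative) in the other table. A group was a single library, which leaves neither replicate error nor a test. Intervals in brackets after folds are 95% exact intervals from read numbers recovered from the FPKM, and they cover counting error only. A difference is log2((FPKM + 1) / (FPKM + 1)) of the first named library over the second, a gene was measured at 1 FPKM or more in either library, and 2-fold means a difference of at least 1 or at most -1. All 12 ILC3 marker genes were at 1 FPKM or more in KO and WT ILC3s, and all 11 of them in the CD93 table were so in both CD93 libraries. In bulk RNA, fewer cells of a type and less RNA per cell cannot be told apart.

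The members summed to 3174 FPKM in KO, 0.622% of all FPKM there, and to 3906 FPKM in WT, or 0.679%. Hspa5 (BiP, the HSP70 of the ER) was the most abundant member in both, at 1153 FPKM in KO and 1106 FPKM in WT. In the CD93 table the members summed to 2873 FPKM in CD93-positive ILC3s (1.12%) and to 2399 FPKM in CD93-negative ILC3s (1.06%). There the most abundant was Hsp90ab1, the constitutive cytosolic HSP90, at 612 FPKM in CD93-positive and 397 FPKM in CD93-negative ILC3s.

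The first question was how chaperone levels differed between ILC3s of mice with the genotype Il17d-KO and ILC3s of wild-type mice. All 10 heat-induced members were lower in KO than in WT ILC3s, against 49.5% of all 12376 measured genes, and 5 of the 10 were at least 2-fold lower, against 12.7% of all genes. Their median difference was -0.98, against 0.01 for all measured genes. The list was chosen with earlier results of these data known, so these values describe it and are no independent support. Medians nearer 0 were found for ER chaperones (-0.31), mitochondrial chaperones (-0.22, with Hspd1 and Hspe1), TRiC/CCT subunits (-0.22) and constitutive cytosolic chaperones (-0.05). None of these genes was 2-fold apart by this difference. Single ones such as Cct4 (-0.96) and Hspa8 (-0.63) still lay further from 0 than the heat-induced Dnaja1 (-0.44). Of the 66 measured members, 46 were lower and 20 higher (44 lower and 26 higher of 70 under a common sum per library, where more members pass the limit). Of all measured genes, 49.5% were lower as deposited and 42.7% under a common sum, shares that also apply to the group counts below. At 2-fold, 8 were lower (12.1%, near the 12.7% of all genes) and 3 were higher (4.55%, against 16.6% of all genes).

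**Figure D1:**
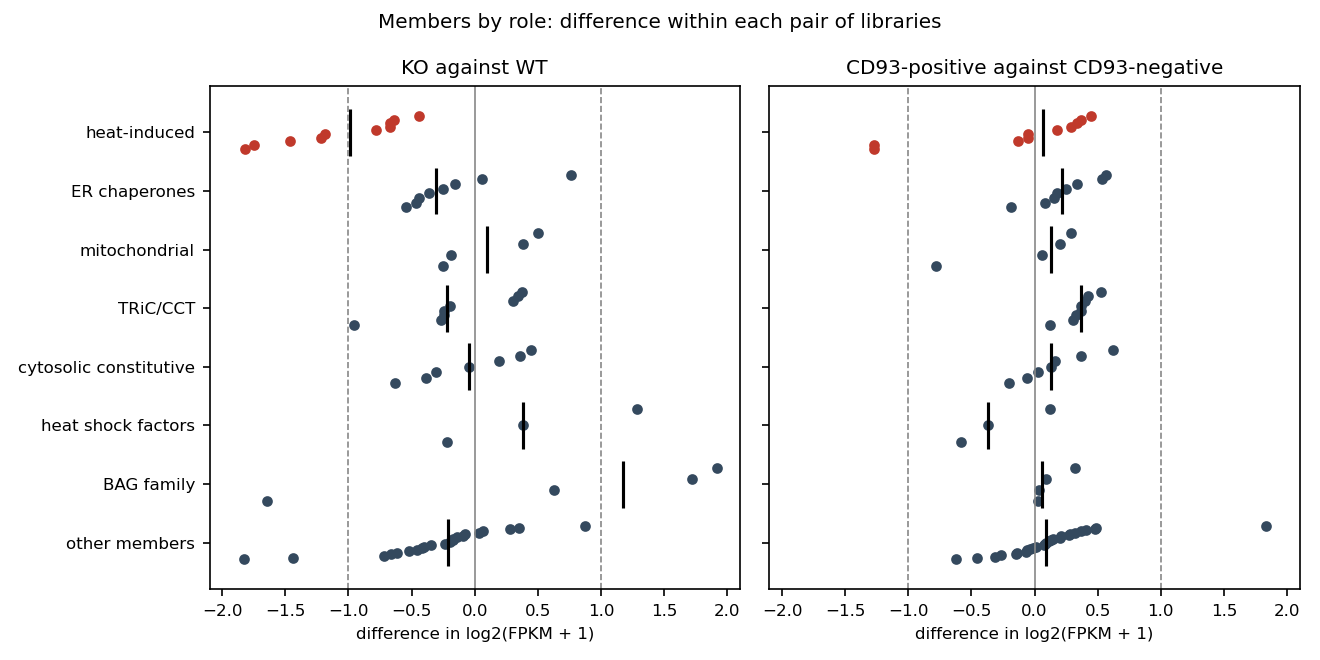
Difference in log2(FPKM + 1) of each measured member (points) by role, KO minus WT on the left and CD93-positive minus CD93-negative on the right. Black bars are medians, dashed lines mark 2-fold, and each gene stands in 1 row only (Hspd1, Hspe1 and Bag3 with the heat-induced genes). The 10 heat-induced members all lie left of 0 in the left panel, with a median of -0.98, while in the right panel Hspa1a and Hspa1b are the only heat-induced members beyond the 2-fold line.

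Dnajb1 (HSP40, the J-domain partner of inducible HSP70) had the largest gap in FPKM among the heat-induced genes. It lies at chr8:83608193-83612653 on the plus strand (GENCODE M21, mm10). It was at 170.4 FPKM in KO, from 14740 recovered reads, and at 470.2 FPKM in WT, from 39305 reads, which is 2.76-fold lower in KO (2.71 to 2.81). In WT it was the second most abundant of the 71 members and stood above Hspa8, the constitutive HSP70, at a ratio of 1.39. In KO that ratio was 0.783. The ratio is taken within a library, so it does not depend on scaling.

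Hspa1a and Hspa1b encode inducible HSP70. Their near-identical promoters are printed above. They lie at chr17:34969190-34972156 and chr17:34956436-34959238, and their coding sequences are identical at 1915 of 1923 aligned bases. Reads may therefore be split between the copies in a way that depends on the aligner, and each copy's own value is uncertain. Hspa1a was at 24.5 FPKM in KO and 57.2 FPKM in WT. Hspa1b was at 8.52 FPKM in KO and 32.7 FPKM in WT. Added together, the copies had 2611 reads in KO and 6818 in WT, 2.70-fold lower in KO (2.58 to 2.83).

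Bag3, a nucleotide exchange factor that HSF1 induces and that guides clients to autophagy, was at 0.477 FPKM in KO and 3.96 FPKM in WT. It had the widest fold of the heat-induced genes, 8.31-fold lower in KO (5.78 to 12.3), and rested on the fewest reads, 33 in KO and 265 in WT. It passed the 1 FPKM limit through WT alone. Dnajb4, another J-domain partner of HSP70, was at 4.69 FPKM in KO and 12.2 FPKM in WT, 2.60-fold lower (2.43 to 2.79). These were the low-level genes of the group.

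The remaining heat-induced genes were lower in KO by less than 2-fold. Hsph1 (HSP110) was at 18.3 FPKM in KO and 32.1 FPKM in WT, 1.76-fold lower (1.69 to 1.83). Hsp90aa1, the inducible cytosolic HSP90, was at 109.8 FPKM in KO and 176 FPKM in WT, 1.60-fold lower (1.56 to 1.64). Its ratio to the constitutive Hsp90ab1 was 0.313 in KO and 0.405 in WT. Dnaja1, a J-domain protein of the cytosol, was at 55.4 FPKM in KO and 75.6 FPKM in WT, 1.36-fold lower (1.33 to 1.40) and the nearest to equal of the 10.

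Hspd1 (HSP60) and Hspe1 (HSP10) form the chaperonin of the mitochondrial matrix and overlap head to head on chromosome 1. Hspd1 was at 20.2 FPKM in KO and 32.8 FPKM in WT, 1.62-fold lower (1.52 to 1.74). Hspe1 was at 12.4 FPKM in KO and 19.8 FPKM in WT, 1.60-fold lower (1.43 to 1.80). The ratio of Hspe1 to Hspd1 was nearly equal in both libraries, 0.613 in KO and 0.605 in WT. No source used here gives the strand setting of the counting, so reads in the shared stretch could belong to either gene. A pseudogene, Hspd1-ps3, was listed above its parent in this table, at 49.6 FPKM in KO and 66.6 FPKM in WT, which makes the level of Hspd1 uncertain.

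**Figure D2:**
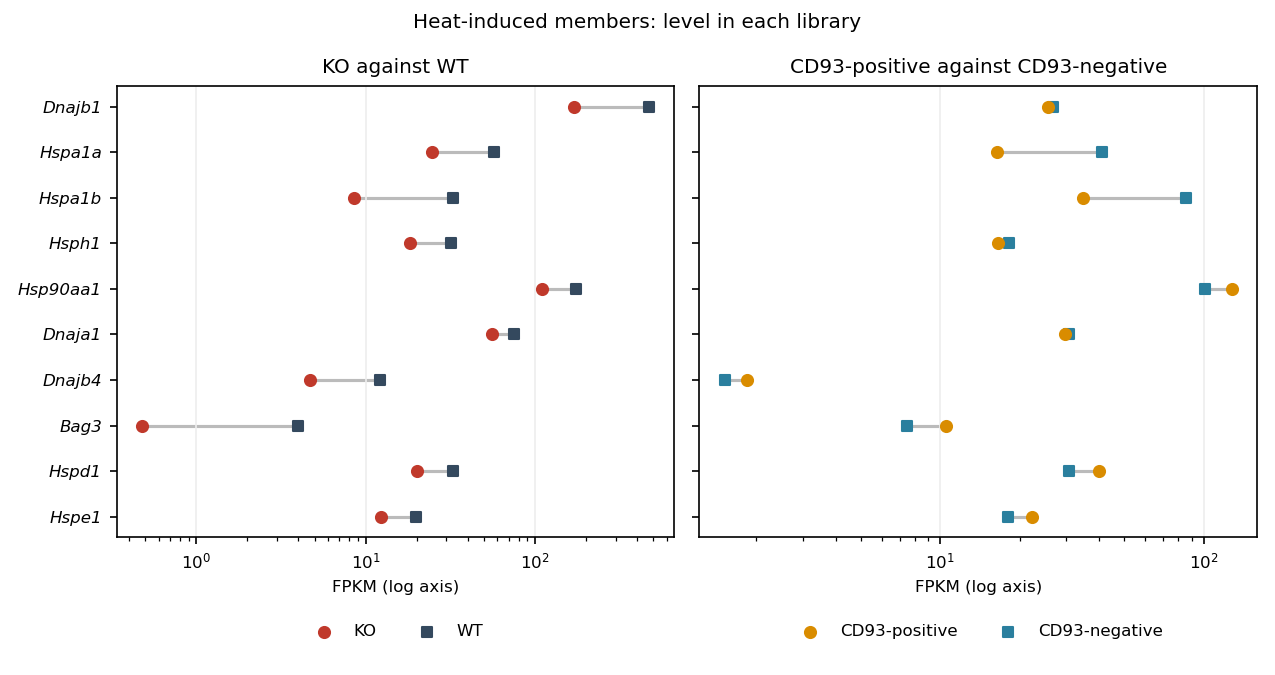
FPKM of the 10 heat-induced members in each library (log axis; KO circles and WT squares on the left, CD93-positive circles and CD93-negative squares on the right; 1 library per symbol). In the left panel every KO circle lies to the left of its WT square, by 1.36-fold for Dnaja1 to 8.31-fold for Bag3. In the right panel only Hspa1a and Hspa1b are 2-fold apart.

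Together the heat-induced genes made up 13.4% of the members' FPKM in KO and 23.4% in WT. Without Dnajb1 the shares were 8.47% in KO and 12.9% in WT, and without Hspa1a and Hspa1b they were 12.5% in KO and 21.5% in WT. The group's median minus that of the other members was -0.79. All 10 genes were lower in KO under each scaling tried, including a common sum per library, where 42.7% of all genes were lower. Among members with at least 1000 reads over the pair, 4 of 9 heat-induced genes were 2-fold lower, against 4.22% of all such genes. Of the 39 other members with as many reads, 3 were 2-fold lower.

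**Figure D3:**
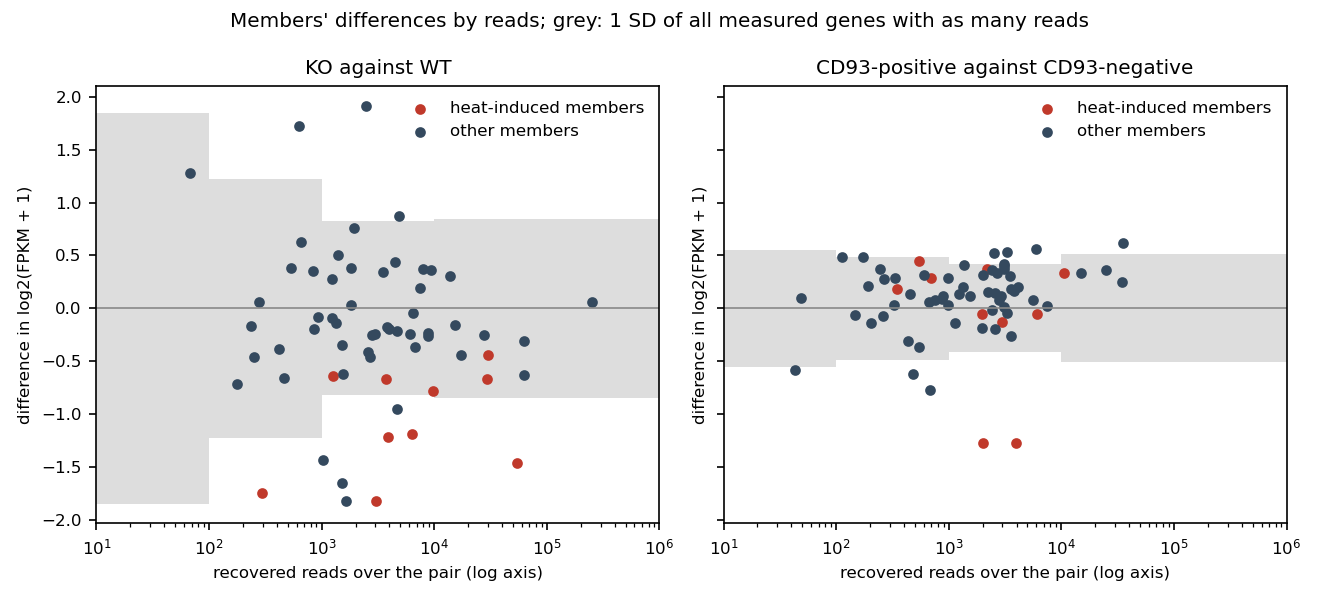
Difference in log2(FPKM + 1) of the measured members with recovered reads, against the reads over the pair (log axis), heat-induced members in red and others in blue. The grey band is 1 SD of the differences of all measured genes in each class of reads. For 1000 to 10000 reads the SD was 0.82 in the KO and WT pair and 0.42 in the CD93 pair; of the heat-induced members, Hspa1b, Bag3, Dnajb1, Dnajb4 and Hspa1a lie below the band on the left, and Hspa1a and Hspa1b on the right.

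The ER chaperones lay nearer to equal. Of 8, 2 were higher and 6 lower in KO, with a median of -0.31, or 3 higher and 5 lower with a median of -0.14 under a common sum. Hspa5 was 1.04-fold higher in KO (1.03 to 1.05). Hsp90b1 (GRP94, the ER form of HSP90) was at 117 FPKM in KO and 140.1 FPKM in WT, 1.19-fold lower (1.17 to 1.22). Dnajb9, which recruits BiP to the stress sensor IRE1, was at 106 FPKM in KO and 118 FPKM in WT. The next 4 were lower by 1.29-fold to 1.53-fold. The J-domain protein Dnajb11 was at 34.7 FPKM in KO and 44.9 FPKM in WT, and Dnajc3, an inhibitor of the kinase PERK as well as a BiP partner, was at 54.2 FPKM in KO and 73.9 FPKM in WT. Dnajc1 was at 3.49 FPKM in KO and 5.18 FPKM in WT, and Hspa13, a microsomal HSP70, at 5.77 FPKM in KO and 8.86 FPKM in WT. Dnajc10 (ERdj5), which reduces disulfide bonds, went the other way at 9.48 FPKM in KO and 5.18 FPKM in WT, 1.83-fold higher (1.67 to 2.01). The ER chaperones made up 46.8% of the members' FPKM in KO and 38.5% in WT.

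Among the other mitochondrial chaperones, Hspa9 (mortalin, the HSP70 of the matrix) was at 22.7 FPKM in KO and 26.0 FPKM in WT. Its partner Dnaja3 was at 8.09 FPKM in KO and 5.43 FPKM in WT, 1.49-fold higher (1.34 to 1.66). Dnajc15 and Dnajc19 belong to the motor that draws proteins into the matrix. Dnajc15 was at 7.34 FPKM in KO and 8.92 FPKM in WT, and Dnajc19 at 2.98 FPKM in KO and 2.06 FPKM in WT. Hspa9 and Dnajc19 also have pseudogenes listed above them in this table, so how reads were shared out is uncertain. With Hspd1 and Hspe1 counted here, 2 of 6 were higher and 4 lower.

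TRiC/CCT is a double ring of 8 kinds of subunit that folds actin and tubulin. Its subunits differed among themselves in KO and WT ILC3s: 3 were higher and 5 lower, with a median of -0.22 (-0.05 under a common sum). Cct4 stood apart at 14.1 FPKM in KO and 28.4 FPKM in WT, 2.01-fold lower (1.89 to 2.13), a difference of -0.96. Cct5, the most abundant, was at 104 FPKM in KO and 83.5 FPKM in WT. Cct6a was at 20.6 FPKM in KO and 16.0 FPKM in WT, and Cct7 at 25.0 FPKM in KO and 19.1 FPKM in WT. These were the higher subunits, by 1.24-fold to 1.31-fold. Cct2 was at 41.3 FPKM in KO and 49.0 FPKM in WT, and Cct8 at 48.5 FPKM in KO and 58.5 FPKM in WT. Cct3 was at 8.05 FPKM in KO and 9.70 FPKM in WT, and Tcp1 (the alpha subunit) at 13.8 FPKM in KO and 15.9 FPKM in WT. A pseudogene, Cct3-ps1, was listed above Cct3, at 32.8 FPKM in KO and 36.5 FPKM in WT.

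**Figure D4:**
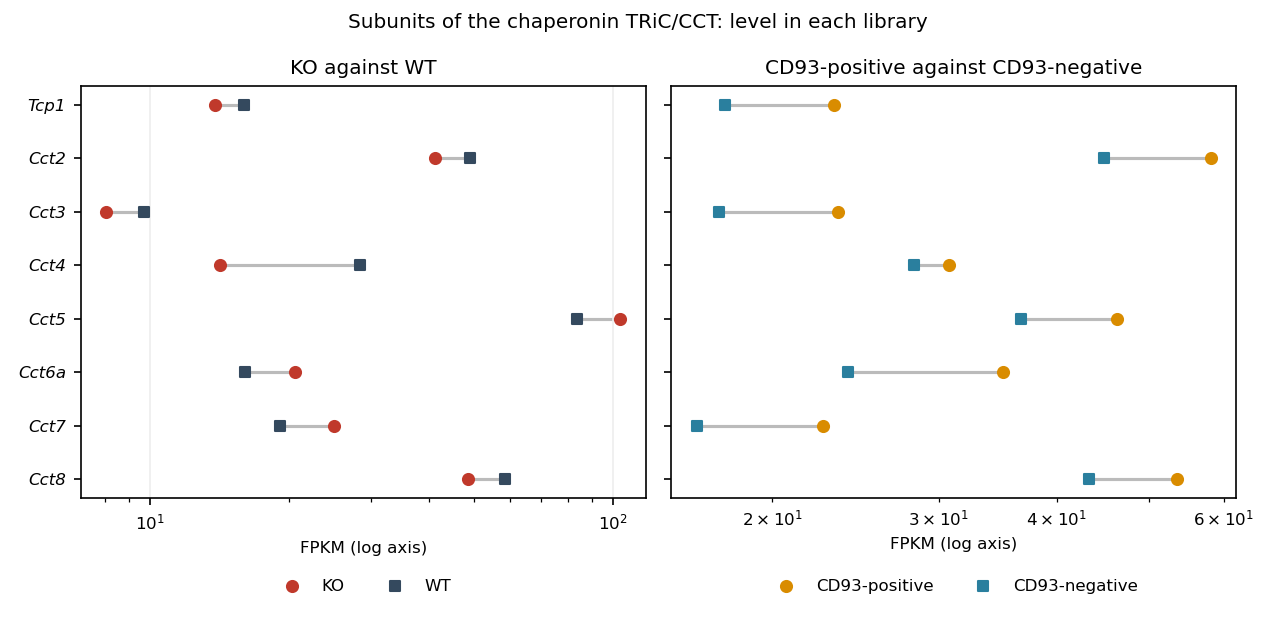
FPKM of the 8 TRiC/CCT subunits in each library (log axis; KO circles and WT squares on the left, CD93-positive circles and CD93-negative squares on the right; 1 library per symbol). On the left 3 subunits are higher and 5 lower in KO; on the right all 8 are higher in CD93-positive ILC3s, by 1.09-fold (Cct4) to 1.46-fold (Cct6a), or 7 of 8 under a common sum.

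The constitutive chaperones of the cytosol held 22.2% of the members' FPKM in KO and 22.8% in WT. Hspa8 was at 218 FPKM in KO and 338 FPKM in WT, 1.55-fold lower (1.53 to 1.58). Hsp90ab1 was at 351 FPKM in KO and 433 FPKM in WT, 1.24-fold lower (1.22 to 1.26). The abundant pair was thus lower in KO, while smaller members went both ways. Hspa4, an HSP110-type exchange factor, was at 36.1 FPKM in KO and 27.8 FPKM in WT. Hspa14, which sits on the ribosome with Dnajc2, was at 36.7 FPKM in KO and 32.0 FPKM in WT, and Dnajc2 itself at 1.24 FPKM in KO and 1.93 FPKM in WT. Dnaja2 was nearly level at 40.7 FPKM in KO and 42.1 FPKM in WT, and Dnajc7, a cochaperone that binds both HSP70 and HSP90, was at 20.1 FPKM in KO and 14.5 FPKM in WT. Their median was -0.05, with 3 of 7 higher, and 0.12 with 4 of 7 higher under a common sum.

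The transcription factor of the heat shock response was not lower with the 10 members taken here as its targets. Hsf1 was at 5.64 FPKM in KO and 4.10 FPKM in WT, 1.38-fold higher (1.25 to 1.51). Hsf2, which can pair with HSF1, was at 8.36 FPKM in KO and 9.88 FPKM in WT. Hsf4, known from the lens of the eye, had 68 reads in KO and none in WT, at least 21.9-fold higher against a floor of 3 reads in WT, and passed the 1 FPKM limit through KO alone. HSF1 is controlled mainly on the protein, which these data do not show.

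The BAG cochaperones other than Bag3 lay far apart from each other. Bag1, an exchange factor that also binds BCL-2, was at 9.86 FPKM in KO and 33.0 FPKM in WT, 3.35-fold lower (2.98 to 3.79). Bag5 was at 29.4 FPKM in KO and 7.06 FPKM in WT, 4.17-fold higher (3.76 to 4.62). Bag4 (silencer of death domains) was at 3.09 FPKM in KO and 0.240 FPKM in WT, 12.9-fold higher (9.46 to 17.9), on 586 reads in KO and 44 in WT. Bag6, which handles membrane proteins before insertion, was at 2.62 FPKM in KO and 1.34 FPKM in WT. With Bag3, 2 of 5 were 2-fold higher (16.6% of all genes) and 2 were 2-fold lower in KO (12.7% of all genes), of which Bag4 and Bag3 passed the limit through their high library alone. Hsf4, Bag4 and Bag5 were the 3 members that were 2-fold higher, 1 when at least 1000 reads were required (7.99% of all such genes) and 5 under a common sum (21.7% of all genes).

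Of the 27 members outside these groups, 22 were measured, and as deposited 17 of them were lower and 5 higher in KO, with a median of -0.22. Hspa2, an HSP70 best known from the testis, was at 4.66 FPKM in KO and 19.1 FPKM in WT, 4.09-fold lower (3.63 to 4.63). Dnajc24, needed to make diphthamide on elongation factor 2, was at 7.22 FPKM in KO and 21.3 FPKM in WT, 2.95-fold lower (2.56 to 3.40). These were the only 2-fold differences in log2(FPKM + 1) among the 22, whose differences ran between -1.83 and 0.88. The 5 members below the limit were Dnajb5, Dnajb14, Dnajc16, Dnajc17 and Dnajc25, named because they failed it and not by the rule for named genes.

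Chaperone genes outside the members gave no common direction in KO. Of 18 measured HSP90 and HSP70 cochaperones such as Stip1 and Cdc37, 10 were higher and 8 lower, with a median of 0.16. They were not sorted into heat-induced and other genes, so the heat-induced members do not stand for every heat-induced gene. Trap1, the HSP90 of mitochondria, was at 40.0 FPKM in KO and 15.1 FPKM in WT, and was 1 of 3 of these 18 that were 2-fold higher, a share near the 16.6% of all genes. The others, Fkbp5 and Grpel2, were below 5 FPKM and are named after their values were seen. Of 8 prefoldin genes, whose products hand actin and tubulin to TRiC/CCT, 2 were higher and 6 lower (median -0.20), or 4 and 4 under a common sum. Of 18 other genes of ER folding and ER stress, 10 were higher and 8 lower (median 0.15).

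Immediate early genes such as Fos and Jun are switched on fast by many stimuli without new protein synthesis. Of 15 measured, 10 were higher and 5 lower in KO, with a median of 0.57, against 50.5% of all genes higher. Under a common sum 12 were higher, against 57.3% of all genes.

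Markers of other cells differed between KO and WT as well. The 12 pancreatic acinar markers summed to 1658 FPKM in KO, where all 12 were at 1 FPKM or more, and to 7.43 FPKM in WT, where 8 were at 0. The 9 epithelial markers in the table summed to 1166 FPKM in KO and 347 FPKM in WT, mostly from Defa24, at 887 FPKM in KO and 243 FPKM in WT. The 11 T cell markers summed to 1418 FPKM in KO and 957 FPKM in WT, and the 6 B and plasma cell markers used here to 4666 FPKM in KO and 2836 FPKM in WT. Iglc1 made up most of that last gap, at 2579 FPKM in KO and 1019 FPKM in WT. Of the 12 ILC3 markers, 5 were higher and 7 lower in KO (median -0.10). Il22, the ILC3 cytokine, was at 11771 FPKM in KO and 16102 FPKM in WT, and the other 11 summed to 2225 FPKM in KO and 2261 FPKM in WT. The most abundant of these 11 was Tcrg-C1, a constant gene of the T cell receptor gamma chain, at 824 FPKM in KO and 970 FPKM in WT. The 6 myeloid markers in the table summed to 64.4 FPKM in KO and 17.5 FPKM in WT, mostly from Lyz2, at 46.4 FPKM in KO and 10.9 FPKM in WT. Of these 6, 4 were 2-fold higher and 2 were 2-fold lower in KO. The 2 lower ones, Cd209a and Xcr1, were below 5 FPKM in both libraries. The 6 markers of fibroblasts and muscle summed to 0.410 FPKM in KO and 5.83 FPKM in WT. The 3 of endothelium summed to 19.2 FPKM in KO and 13.4 FPKM in WT, mostly from Pecam1, at 17.4 FPKM in KO and 11.9 FPKM in WT. The part of these cells in the chaperone differences was not tested.

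The second question was how chaperone levels differed between ILC3s sorted as CD93-positive and as CD93-negative from wild-type mice, although both libraries held Cd93 RNA. As deposited, but not under a common sum per library, most chaperones were modestly higher in CD93-positive ILC3s, while inducible HSP70 was lower under both. All 71 members were measured, and 50 were higher, against 54.4% of the 10117 measured genes, and 21 lower. The median was 0.13, against 0.04 for all genes. The common sum, which shifted this pair by -0.18, gave 33 higher and 38 lower, against 35% of all genes higher, and the median was -0.01 against -0.15 for all genes. Counts of direction in this pair thus depend on scaling. Only 1 member was 2-fold higher (against 2.49% of all genes) and 2 were 2-fold lower (against 1.94% of all genes), or 4 under a common sum (6.19% of all genes).

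The 2 lower members were Hspa1a and Hspa1b. Hspa1a was at 16.3 FPKM in CD93-positive and 41.0 FPKM in CD93-negative ILC3s. Hspa1b was at 34.7 FPKM in CD93-positive and 85.4 FPKM in CD93-negative ILC3s. Each had a difference of -1.27. Together they had 1707 reads in CD93-positive and 4254 reads in CD93-negative ILC3s, 2.48-fold lower (2.34 to 2.62).

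Dnajb1, the main partner of inducible HSP70, was nearly level in this pair. It was at 25.7 FPKM in CD93-positive and 26.7 FPKM in CD93-negative ILC3s, 1.04-fold lower with an interval that includes 1 (0.951 to 1.14). Dnaja1 was at 29.6 FPKM in CD93-positive and 30.7 FPKM in CD93-negative ILC3s. Hsph1 was at 16.6 FPKM in CD93-positive and 18.2 FPKM in CD93-negative ILC3s. These 3 genes were within 1.10-fold of equal.

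The other 5 heat-induced genes were higher in CD93-positive ILC3s as deposited. Hsp90aa1 was at 128 FPKM in CD93-positive and 101 FPKM in CD93-negative ILC3s, 1.27-fold higher (1.22 to 1.32). Hspd1 was at 40.1 FPKM in CD93-positive and 30.9 FPKM in CD93-negative ILC3s, 1.30-fold higher (1.19 to 1.42). Hspe1 was at 22.2 FPKM in CD93-positive and 18.0 FPKM in CD93-negative ILC3s, and its ratio to Hspd1 was 0.555 in CD93-positive ILC3s and 0.584 in CD93-negative ILC3s. The levels of these chaperonin genes thus stood in a similar ratio in both libraries. Bag3 was at 10.5 FPKM in CD93-positive and 7.48 FPKM in CD93-negative ILC3s, 1.41-fold higher (1.18 to 1.68). Dnajb4 was at 1.85 FPKM in CD93-positive and 1.52 FPKM in CD93-negative ILC3s, with an interval that includes 1 (0.981 to 1.51).

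The 10 heat-induced members therefore had no common direction in this pair, with 5 higher and 5 lower and a median of 0.06 that became -0.06 under a common sum. They made up 11.3% of the members' FPKM in CD93-positive ILC3s and 15.0% in CD93-negative ILC3s. Without Hspa1a and Hspa1b the shares were 9.72% in CD93-positive ILC3s and 10.3% in CD93-negative ILC3s. Their median minus that of the other members was -0.07, and 0.10 without Hspa1a and Hspa1b. Hspb1 (HSP25), a small heat shock protein that was listed in the CD93 table alone and is therefore no member, was at 4.14 FPKM in CD93-positive and 11.0 FPKM in CD93-negative ILC3s, and is named after its values were seen.

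Constitutive cytosolic chaperones held 34.9% of the members' FPKM in CD93-positive ILC3s and 30.3% in CD93-negative ILC3s. Hsp90ab1 was 1.54-fold higher in CD93-positive ILC3s (1.51 to 1.57). Hspa8 was at 281 FPKM in CD93-positive and 218 FPKM in CD93-negative ILC3s, 1.29-fold higher (1.26 to 1.32). Hspa4 was at 31.1 FPKM in CD93-positive and 27.6 FPKM in CD93-negative ILC3s. Hspa14 was at 10.4 FPKM in CD93-positive and 10.2 FPKM in CD93-negative ILC3s, Dnajc2 at 10.9 FPKM in CD93-positive and 9.82 FPKM in CD93-negative ILC3s, and Dnajc7 at 23.2 FPKM in CD93-positive and 24.3 FPKM in CD93-negative ILC3s. Dnaja2 was at 34.3 FPKM in CD93-positive and 39.6 FPKM in CD93-negative ILC3s, 1.15-fold lower (1.07 to 1.25). As deposited 5 of 7 were higher, against 54.4% of all genes, and 2 of 7 under a common sum, against 35% of all genes. Under the common sum their median was -0.03, against -0.15 for all genes.

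Every TRiC/CCT subunit was higher in CD93-positive ILC3s as deposited, with a median of 0.37. Under a common sum 7 of 8 were higher, against 35% of all genes, with a median of 0.20. Cct6a was at 35.0 FPKM in CD93-positive and 24.1 FPKM in CD93-negative ILC3s, 1.46-fold higher (1.34 to 1.58). Cct4 was at 30.8 FPKM in CD93-positive and 28.3 FPKM in CD93-negative ILC3s, 1.09-fold higher (1.01 to 1.17). The remaining 6 were 1.24-fold (Cct8) to 1.36-fold (Cct7) higher. Cct2 was at 58.1 FPKM in CD93-positive and 44.8 FPKM in CD93-negative ILC3s, Cct8 at 53.5 FPKM in CD93-positive and 43.2 FPKM in CD93-negative ILC3s, and Cct5 at 46.3 FPKM in CD93-positive and 36.6 FPKM in CD93-negative ILC3s. Cct3 was at 23.5 FPKM in CD93-positive and 17.6 FPKM in CD93-negative ILC3s, Tcp1 at 23.2 FPKM in CD93-positive and 17.8 FPKM in CD93-negative ILC3s, and Cct7 at 22.6 FPKM in CD93-positive and 16.7 FPKM in CD93-negative ILC3s. Of the prefoldins, 5 of 8 were higher (median 0.39), and of the HSP90 and HSP70 cochaperones 13 of 19 (median 0.11), or 9 of 20 under a common sum.

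Of the ER chaperones, 7 of 8 were higher in CD93-positive ILC3s as deposited, against 54.4% of all genes. Under a common sum 5 of 8 were higher, against 35% of all genes, with a median of 0.05 against -0.15 for all genes. Dnajc3 was at 59.2 FPKM in CD93-positive and 39.7 FPKM in CD93-negative ILC3s, 1.49-fold higher (1.41 to 1.57). Dnajb11 was at 51.8 FPKM in CD93-positive and 35.5 FPKM in CD93-negative ILC3s, 1.46-fold higher (1.36 to 1.57). Both are partners of BiP. Hsp90b1 was at 178 FPKM in CD93-positive and 141 FPKM in CD93-negative ILC3s, 1.27-fold higher (1.23 to 1.31), and Hspa5 at 376 FPKM in CD93-positive and 315 FPKM in CD93-negative ILC3s, 1.19-fold higher (1.17 to 1.22). Hspa13 was at 17.8 FPKM in CD93-positive and 16.8 FPKM in CD93-negative ILC3s, Dnajc1 at 13.8 FPKM in CD93-positive and 12.1 FPKM in CD93-negative ILC3s, and Dnajc10 at 19.9 FPKM in CD93-positive and 17.8 FPKM in CD93-negative ILC3s. Dnajb9 was the lower one, at 30.6 FPKM in CD93-positive and 34.9 FPKM in CD93-negative ILC3s (1.14-fold, 1.04 to 1.25). Other genes of ER folding and ER stress were higher in 16 of 18 (median 0.44), and in 13 of 18 under a common sum (median 0.27).

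In the mitochondrial group, Hspa9 was at 44.0 FPKM in CD93-positive and 38.2 FPKM in CD93-negative ILC3s, 1.15-fold higher (1.08 to 1.22). Dnajc15 was at 2.99 FPKM in CD93-positive and 5.83 FPKM in CD93-negative ILC3s, 1.95-fold lower (1.66 to 2.30), the lowest difference after Hspa1a and Hspa1b. It was the group's exception as deposited, since 5 of 6 were higher, or 4 of 6 under a common sum. Of all genes, 54.4% were higher as deposited and 35% under a common sum. Dnajc19, which works in the same import motor, was at 3.99 FPKM in CD93-positive and 3.07 FPKM in CD93-negative ILC3s, and Dnaja3 at 7.49 FPKM in CD93-positive and 7.13 FPKM in CD93-negative ILC3s.

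The heat shock factors were low in this pair. Hsf1 was at 9.62 FPKM in CD93-positive and 8.78 FPKM in CD93-negative ILC3s, with an interval that includes 1 (0.990 to 1.21). Hsf2 was at 1.96 FPKM in CD93-positive and 2.83 FPKM in CD93-negative ILC3s, 1.44-fold lower (1.21 to 1.72). Hsf4 had 13 reads in CD93-positive ILC3s and 30 in CD93-negative ILC3s and passed the 1 FPKM limit through CD93-negative alone. Among the BAG genes other than Bag3, Bag1 was at 70.4 FPKM in CD93-positive and 56.3 FPKM in CD93-negative ILC3s, 1.25-fold higher (1.14 to 1.37). Bag4 was at 2.02 FPKM in CD93-positive and 1.94 FPKM in CD93-negative ILC3s, Bag5 at 15.2 FPKM in CD93-positive and 14.3 FPKM in CD93-negative ILC3s, and Bag6 at 51.9 FPKM in CD93-positive and 51.0 FPKM in CD93-negative ILC3s. The intervals of these 3 folds include 1. As deposited all 5 BAG genes were higher, against 54.4% of all genes, and 2 of 5 under a common sum, against 35% of all genes. Their median under the common sum was -0.08, against -0.15 for all genes.

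The 1 member that was 2-fold higher was Dnajc6 (auxilin, which uncoats clathrin vesicles and is best known from neurons), at chr4:101496648-101642799. It was at 9.18 FPKM in CD93-positive and 1.86 FPKM in CD93-negative ILC3s, 4.93-fold higher. Its FPKM did not give whole reads with the gene length used, so the fold has no interval. The other 26 members outside the groups had no 2-fold difference in log2(FPKM + 1), and over all 27 the differences ran between -0.62 and 1.83, with 17 higher and 10 lower.

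Of 15 immediate early genes, 4 were higher and 11 lower in CD93-positive ILC3s (median -0.40), against 45.6% of all genes lower. Under a common sum 3 of 16 were higher and 13 lower, against 65% of all genes lower. Btg2, an antiproliferative gene of this list, was at 65.9 FPKM in CD93-positive and 135 FPKM in CD93-negative ILC3s. Of the 11 ILC3 markers in the table, 8 were higher and 3 lower in CD93-positive ILC3s (median 0.20). Il22 alone was at 7934 FPKM in CD93-positive and 1655 FPKM in CD93-negative ILC3s, and the other 10 summed to 1086 FPKM in CD93-positive and 789 FPKM in CD93-negative ILC3s. Acinar markers summed to 395 FPKM in CD93-positive and 618 FPKM in CD93-negative ILC3s. The 6 T cell markers in the table summed to 25.8 FPKM in CD93-positive and 63.1 FPKM in CD93-negative ILC3s. Most of that was Lck, at 23.1 FPKM in CD93-positive and 53.2 FPKM in CD93-negative ILC3s, and the other 5 summed to 2.74 FPKM in CD93-positive and 9.94 FPKM in CD93-negative ILC3s. Epithelial markers summed to 26.0 FPKM in CD93-positive and 46.7 FPKM in CD93-negative ILC3s. The only 2 B and plasma cell markers in the table summed to 2.83 FPKM in CD93-positive and 5.89 FPKM in CD93-negative ILC3s. Myeloid markers summed to 52.3 FPKM in CD93-positive and 43.1 FPKM in CD93-negative ILC3s. Markers of fibroblasts and muscle summed to 12.4 FPKM in CD93-positive and 5.07 FPKM in CD93-negative ILC3s. Most of this was Lum, at 11.3 FPKM in CD93-positive and 3.95 FPKM in CD93-negative ILC3s. The other 5 summed to 1.04 FPKM in CD93-positive and 1.12 FPKM in CD93-negative ILC3s. Endothelial markers summed to 86.9 FPKM in CD93-positive and 65.1 FPKM in CD93-negative ILC3s. Most of that was Pecam1, at 74.4 FPKM in CD93-positive and 59.4 FPKM in CD93-negative ILC3s. Of the 3 endothelial markers measured, 2 were higher and 1 lower. The part of these other cells in the chaperone differences was not tested.

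Set side by side, inducible HSP70 (Hspa1a with Hspa1b) was 2.70-fold lower in KO than in WT and 2.48-fold lower in CD93-positive than in CD93-negative ILC3s. Dnajb1 was 2.76-fold lower in KO than in WT and 1.04-fold lower in CD93-positive than in CD93-negative ILC3s. Whether the pairs differ was not tested, since each rests on 1 library per group. How far genes in general lay apart also differed between the pairs, depending on reads. Among genes with 100 to 1000 reads, 40.8% were at least 2-fold apart between KO and WT and 4.55% between CD93-positive and CD93-negative ILC3s. With 1000 to 10000 reads the shares were 13.5% for KO and WT and 3.74% for the CD93 pair. With 10000 reads or more, as for Dnajb1 in KO and WT, they were 4.39% for KO and WT and 4.82% for the CD93 pair.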

How the data were processed

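RNA-seq of 4 ILC3 libraries was used as FPKM values, which the authors computed and deposited as 1 table per library and 1 joint table per pair. The submitters' processing notes list the build mm10 and Bowtie2, Subread's featureCounts, DESeq2 and edgeR; no source used here gives settings, strand or annotation. Reads were recovered as FPKM times GENCODE M21 exon length, and were whole within 0.02 reads for 92.1% (KO), 91.9% (WT), 98.1% (CD93-positive) and 98.2% (CD93-negative) of values above 0. Members had whole reads for 67 of 71 in the KO and WT pair and 68 of 71 in the CD93 pair. Overlaps with another coding gene, whose reads could not be told apart, concern 21 of the 71. The KO and WT table also lists 4 pseudogenes of members, of Hspd1, Hspa9, Cct3 and Dnajc19, and could split reads between them and their parents. A further 8 names were in the CD93 table only.

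A pseudocount of 1 was added before log2, which understates differences of low genes. Folds are ratios of FPKM with 95% exact (Clopper-Pearson) intervals, and 0 reads were set against 3 reads in that library. The labels name no molecular identifiers and PCR copies could not be told apart, so intervals cover counting error only, between libraries and not conditions. Members of the role lists were named with values, as were other members with a 2-fold difference and listed non-members with a 2-fold difference and at least 5 FPKM. Members and lists were chosen with earlier results of these data known. An item of the lists is not reported here. Computation used Python 3.11.15, numpy 2.4.6, pandas 2.3.3, scipy 1.17.1 and matplotlib 3.10.9, and the scripts were tested on simulated data. Other pseudocounts (0.1 and 5), filters, scalings, lists and a 3-fold limit were tried.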

Additional observations from a re-analysis of the deposited data

How the results depend on the processing

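No paired analysis was possible because each group has 1 library and no replicate numbers to share. Leaving out a replicate was likewise not possible. In the KO and WT pair, the count of members 2-fold lower was 8 and became 4 with a 3-fold limit. The count 2-fold higher was 3 and became 1 with a pseudocount of 5, with an FPKM of at least 5 and with at least 1000 reads, and 5 with a common sum. The heat-induced median of -0.98 kept its sign in every alternative: -0.69 with a pseudocount of 5, -0.78 with an FPKM of at least 5 and with at least 1000 reads, -0.83 with a common sum, -1.46 with a strict list (Hspa1a, Hspa1b, Hsph1, Dnajb1 and Bag3), -0.67 with a broad list (adding Hspa8, Hsp90ab1, Hspa4l and Dnajb6), -0.73 without Hspa1a and Hspa1b, and -0.82 when scaled to the mean of the sums, an alternative chosen after seeing the data. The gap of -0.79 to the other members was -0.54 with a pseudocount of 5, -0.55 with an FPKM of at least 5, -0.59 with at least 1000 reads, -1.24 with the strict list, -0.49 with the broad list and -0.53 without Hspa1a and Hspa1b.

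In the CD93 pair, the count of members 2-fold lower was 2 and became 4 with a common sum and 0 with a 3-fold limit. The count 2-fold higher was 1 and became 0 with at least 1000 reads, where Dnajc6 has no recovered reads. The heat-induced median of 0.06 became -0.13 with the strict list and 0.23 without Hspa1a and Hspa1b. Its counting interval, -0.13 to 0.23, includes 0, and its sign also turned with an FPKM of at least 5 (-0.05), with a common sum (-0.06), with at least 1000 reads (-0.05) and when scaled to the mean of the sums (-0.08). The cause of these moves was not tested. The shorter lists and stricter filters also hold fewer genes. No value here has a replicate error, and members with few reads, such as Bag3 with 33 in KO and Hsf4 with 13 in CD93-positive ILC3s, are the least certain by counting.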
